A study of Mus musculus with 12 samples.

Results

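The genes described here build the elastic fibre of the lung: Eln, Lox, Loxl1, Fbln5, Efemp2, Fbn1, Emilin1, Mfap4, Mfap5 and Ltbp4. They are 10 of the 23127 genes in a deposited expression table of mouse whole lung and were chosen by symbol, with results of these data already known. For that reason their differences between groups are given as a description, with no test read from them. All 10 were found once in the table, and all 10 passed the filter on low values.

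RNA was sequenced from whole lungs of 12 C57BL6/J mice, 1 library per mouse, in 3 groups of 4. The controls were taken at 0 weeks, and the other groups received L-NAME at 0.5 g/L in the water together with a high-fat diet (HFD) of 60% lipid for 2 weeks or for 5 weeks. L-NAME inhibits nitric oxide synthase, and the combination with a fatty diet is used to model heart failure with preserved ejection fraction, the setting that the series title names. The 0-week mice were the only untreated group, so treatment, diet and time on study cannot be told apart. The labels used here give no age or sex. Single-cell data named in the series' design are not analysed here.

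Elastic fibres give alveoli, airways and pulmonary vessels their recoil. Tropoelastin, the soluble product of Eln, is laid onto a scaffold of fibrillin microfibrils with the help of fibulins, and lysyl oxidases then cross-link it into insoluble elastin. Smooth muscle cells, fibroblasts and myofibroblasts are the known sources, and most lung elastin is laid down during growth. Elastases released by leukocytes and macrophages are known to degrade it.

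The libraries held between 26000000 and 34100000 reads assigned to genes, read from the steps between low values, and expression is given as counts scaled to the library total (CPM). Markers of lung epithelium were present in full (8 of 8 genes, summing to 39100 to 53300 CPM per library). In these bulk samples, fewer cells of a type and less RNA per cell cannot be told apart. Earlier results of these data singled out 3 libraries, 1 in each group. In replicate 2 of the controls, adipocyte markers (8 of 8 in the table) summed to 1870 CPM, against 45.4 to 132 CPM in the other controls. In replicate 3 of the 2-week group, smooth muscle markers summed to 2300 CPM, against 1530 to 1950 CPM in the other 2-week libraries. In replicate 3 of the 5-week group, red cell markers summed to 16200 CPM, against 1510 to 4490 CPM in the other 5-week libraries. Values without these 3 libraries are given beside some fitted differences but not all, and they were not computed for correlations with cell type markers. The labels give no litter, cage or sequencing day, so no such batch could be examined.

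A mean of 1 CPM or more was required, which left 15562 genes. Of these, 0 passed limma at an adjusted p under 0.05 in any of the 3 comparisons, which is 0% of the genes tested in each, and 0 of the 10 elastic fibre genes did. The unadjusted p was under 0.05 for 1438 genes when 2 weeks were set against 0 weeks. The same count was 1343 genes between 5 and 0 weeks and 1696 genes between 5 and 2 weeks. Differences are on the log2(CPM + 1) scale, which understates changes of genes with low values, and carry the standard error (SE) of that fit.

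Elastin itself stood lower at 5 weeks than at either earlier time. Eln (ENSMUSG00000029675, chromosome 5, 134731447 to 134776177, in the positions of the deposited table) had 116, 146, 143.5 and 104 CPM in the 0-week control libraries. It had 154, 142, 138 and 139.5 CPM in the 2-week libraries and 91.1, 83.3, 44.7 and 64.5 CPM in the 5-week libraries. Every 5-week library lay below every control and every 2-week library, whereas the 2-week libraries overlapped the controls.

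The 5-week mean of Eln was 70.9 ± 20.7 CPM, against 127 ± 20.9 CPM in the controls (SD, n = 4 each), which is 44.3% lower. The log2 difference was -0.87 ± 0.18 for 5 against 0 weeks and -1.06 ± 0.18 for 5 against 2 weeks, and it was 0.18 ± 0.18 for 2 against 0 weeks (SE). The 5-week group was also the most variable, with a coefficient of variation of 29.2%, against 5.07% at 2 weeks. Replicate 3 of that group, 1 of the 3 singled out, had the lowest Eln value of all 12 libraries. Without it the difference for 5 against 0 weeks was -0.67, and without all 3 libraries singled out it was -0.60. For 5 against 2 weeks the differences were -0.85 and -0.87 in the same order. For 2 against 0 weeks the difference was 0.09 without control replicate 4.

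**Figure D1:**
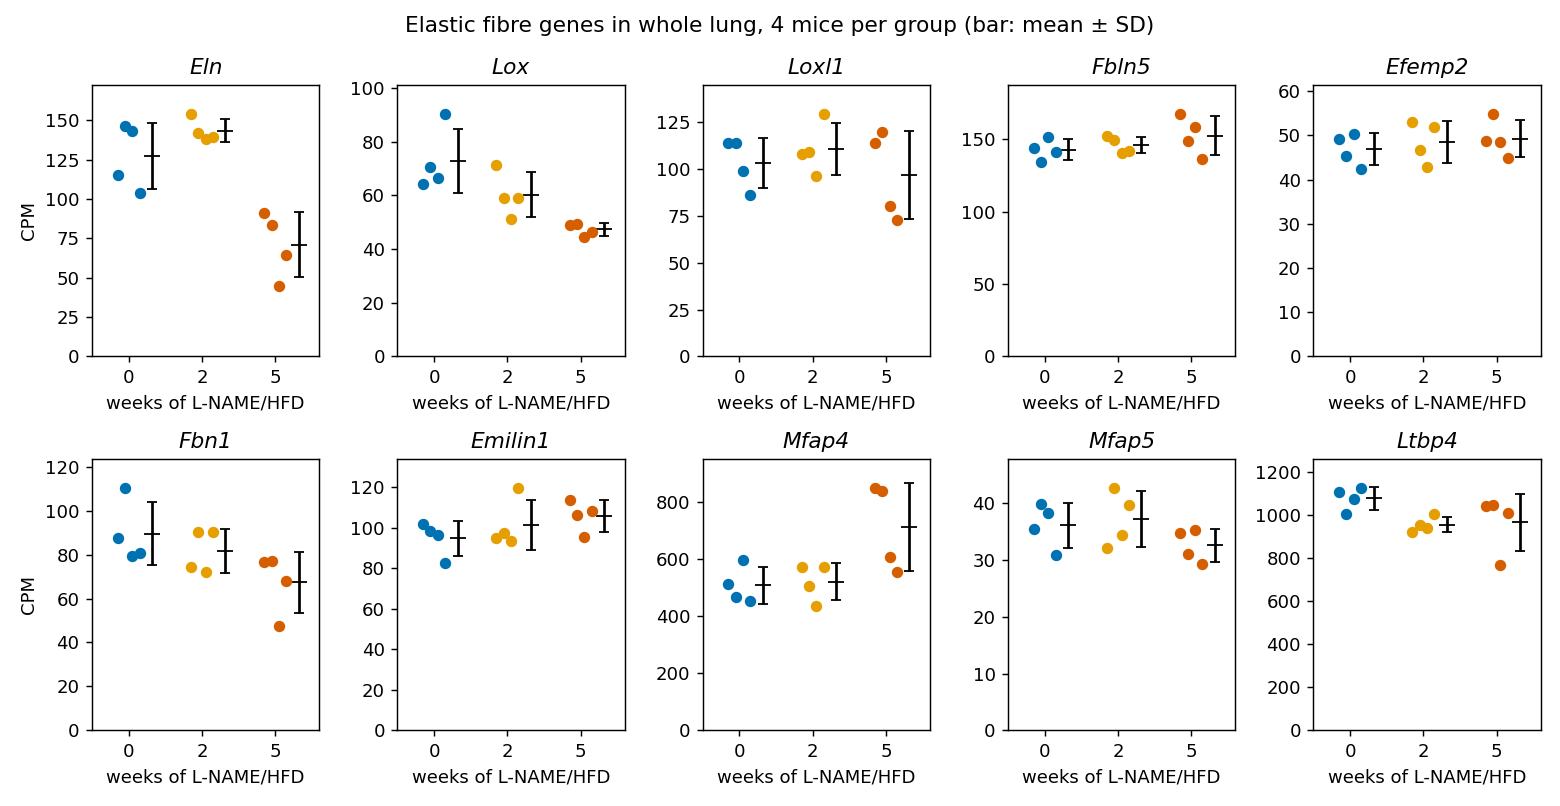
CPM of the 10 elastic fibre genes in each library (points, left to right replicates 1 to 4) after 0, 2 and 5 weeks, with the group mean and SD beside them (n = 4 mice). Each panel starts at 0. The 5-week points of Eln and Lox lie below all others, and 2 of the 4 Mfap4 points at 5 weeks lie above 800 CPM.

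The cross-linking enzymes differed from each other. Lox (chromosome 18, 52649139 to 52662939) encodes lysyl oxidase, which oxidises lysine side chains of tropoelastin and collagen. It had 64.1, 70.5, 66.4 and 90.3 CPM in the controls, 71.4, 59.0, 51.3 and 59.0 CPM at 2 weeks and 49.1, 49.5, 44.3 and 46.5 CPM at 5 weeks. The 5-week libraries were tightly grouped and lay below all others, and the 2-week libraries overlapped the controls. The 5-week mean was 47.4 ± 2.42 CPM, against 72.8 ± 11.9 CPM in the controls (SD, n = 4 each), and the log2 difference was -0.60 ± 0.11 (SE). For 2 against 0 weeks it was -0.27 ± 0.11, and it was -0.16 without control replicate 4, the highest Lox library. For 5 against 2 weeks the Lox difference was -0.33 ± 0.11.

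Loxl1 (chromosome 9, 58195021 to 58220469) encodes a lysyl oxidase-like enzyme that acts on elastin and is tied to the fibre by fibulin-5. It averaged 96.4 ± 23.4 CPM at 5 weeks, against 103 ± 13.3 CPM in the controls (SD, n = 4 each). Its 5-week libraries split, with 114 and 119 CPM in replicates 1 and 2 and 80.2 and 72.6 CPM in replicates 3 and 4. The log2 difference of -0.12 ± 0.16 was within its error, and it was 0.01 without 5-week replicate 4.

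The fibulins that carry tropoelastin onto microfibrils varied least. Fbln5 (chromosome 12, 101712824 to 101785314), which encodes fibulin-5, lay between 135 and 152 CPM in the controls, between 141 and 152 CPM at 2 weeks and between 136 and 167.5 CPM at 5 weeks. Its highest library was 1.24 times its lowest, against 3.44 times for Eln. Efemp2 (chromosome 19, 5523982 to 5532545), which encodes fibulin-4, averaged 49.2 ± 4.16 CPM at 5 weeks and 46.8 ± 3.61 CPM in the controls (SD, n = 4 each). For 5 against 0 weeks the log2 differences were 0.09 ± 0.07 for Fbln5 and 0.07 ± 0.09 for Efemp2 (SE). With 1 library left out they were as small as 0.04 for Fbln5 (without 5-week replicate 1) and 0.02 for Efemp2 (without 5-week replicate 2). In all 3 comparisons the libraries of both genes overlapped between the groups.

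Among microfibril genes, the 5-week mean was below that of the controls for Fbn1 and above it for Mfap4. Fbn1 (chromosome 2, 125142514 to 125349913), which encodes fibrillin-1, the backbone of the microfibril, had 87.6, 110.5, 79.6 and 80.9 CPM in the controls. It had 74.4, 90.3, 71.9 and 90.2 CPM at 2 weeks and 76.8, 77.2, 47.7 and 67.9 CPM at 5 weeks. Every 5-week library lay below every control, by a margin of a few CPM, and the 5-week and 2-week libraries overlapped. The log2 difference for 5 against 0 weeks was -0.42 ± 0.15 (SE), and it was -0.26 without 5-week replicate 3 and -0.16 without all 3 libraries singled out.

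Mfap4 (chromosome 11, 61376257 to 61379726) encodes a microfibril-associated glycoprotein that binds tropoelastin and fibrillin-1. It had 515, 468, 599 and 455 CPM in the controls, 572, 505, 437 and 572 CPM at 2 weeks and 851, 840, 607 and 557 CPM at 5 weeks. The 2 highest 5-week libraries lay far above all others, whereas replicate 4 lay within the range of the controls. The 5-week mean was 714 ± 154 CPM, against 509 ± 65.1 CPM in the controls (SD, n = 4 each). The log2 difference was 0.47 ± 0.15 for 5 against 0 weeks and 0.43 ± 0.15 for 5 against 2 weeks (SE), and it was 0.50 for 5 against 0 weeks without the 3 libraries singled out.

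Emilin1 (chromosome 5, 31070746 to 31078621), which encodes a glycoprotein at the interface of elastin and microfibrils, averaged 106 ± 7.77 CPM at 5 weeks and 94.6 ± 8.41 CPM in the controls (SD, n = 4 each). Mfap5 (chromosome 6, 122482804 to 122506249), which encodes a small glycoprotein that binds fibrillin, averaged 32.6 ± 2.92 CPM at 5 weeks and 36.2 ± 3.97 CPM in the controls. Ltbp4 (chromosome 7, 27004561 to 27037117), which encodes a latent TGF-β binding protein that acts with fibulin-5 in elastin assembly, averaged 965 ± 134 CPM at 5 weeks and 1077 ± 54.6 CPM in the controls. The log2 differences for 5 against 0 weeks were 0.16 ± 0.09 for Emilin1, -0.14 ± 0.11 for Mfap5 and -0.17 ± 0.10 for Ltbp4 (SE). The Emilin1 difference was 0.10 without control replicate 4, the Mfap5 difference -0.09 without 5-week replicate 4 and the Ltbp4 difference -0.06 without 5-week replicate 3. The 5-week libraries of all 3 genes overlapped the controls. For 2 against 0 weeks Ltbp4 stood at -0.17 ± 0.10, with 1 of the 4 2-week libraries inside the range of the controls.

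Promoters of Fbn1 and Emilin1 are shown because these microfibril genes have a single listed start each and had log2 differences of opposite sign for 5 against 0 weeks. They cover 300 bases around the listed start, from RefSeq on GRCm38.p6, at chr2:125506389-125506688 on the minus strand and chr5:30913536-30913835 on the plus strand. Capitals mark a GC box in Fbn1 and the core of a SMAD-binding element in Emilin1.
Fbn1: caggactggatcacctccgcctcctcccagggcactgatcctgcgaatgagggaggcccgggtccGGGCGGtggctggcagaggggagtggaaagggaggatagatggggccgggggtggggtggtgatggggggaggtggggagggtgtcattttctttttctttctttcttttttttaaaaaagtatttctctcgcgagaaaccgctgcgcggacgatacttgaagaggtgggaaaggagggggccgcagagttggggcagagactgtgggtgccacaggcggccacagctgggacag
Emilin1: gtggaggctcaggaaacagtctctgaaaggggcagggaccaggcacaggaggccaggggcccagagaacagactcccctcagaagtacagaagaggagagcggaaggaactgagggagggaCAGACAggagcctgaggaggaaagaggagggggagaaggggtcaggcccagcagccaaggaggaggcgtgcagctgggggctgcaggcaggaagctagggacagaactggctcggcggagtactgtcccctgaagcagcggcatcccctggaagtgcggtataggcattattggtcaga

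Both strands were searched for the GC box, with the letters GGGCGG, which 35.7% of all 32851 listed promoters held. The core of the SMAD-binding element, with the letters CAGACA, was held by 21% of them. The TATA box, with the letters TATAAA, was held by 13.6%. The AP-1 site, with the letters TGANTCA, was held by 7.81%. Promoters on chromosome 18, where Lox lies, were left out for the 10 genes but not for the shares of all promoters. Eln, Loxl1, Mfap4 and Mfap5 lie on other chromosomes and had no entry among the listed promoters. This left promoters of 5 of the 10 genes, 10 promoters in all. Of these, 8 held a GC box, 2 a SMAD core (Emilin1 and 1 of 2 Fbln5 promoters) and 0 the TATA box or the AP-1 site. Promoters with a GC box belonged to Fbn1, Ltbp4, Fbln5 and Efemp2, and Ltbp4 and Efemp2 each had several, some of them overlapping. The 10 promoters are therefore not independent, and nothing is read from their counts. The Fbn1 window held 60.3% G and C and the Emilin1 window 61.7%, against a median of 52.7% over all listed promoters.

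**Figure D2:**
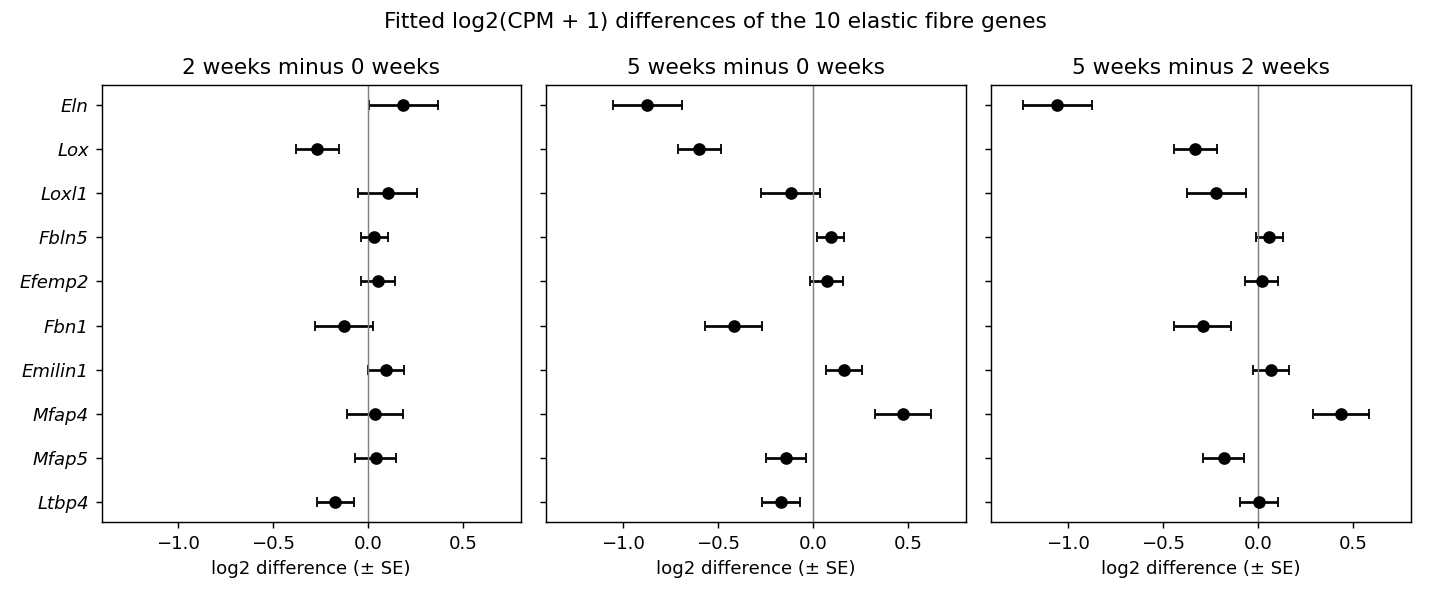
Fitted log2 differences of the 10 genes (points, bars ± SE) for 2 minus 0, 5 minus 0 and 5 minus 2 weeks. Eln lies farthest below 0 in both comparisons of the 5-week group, and Mfap4 lies farthest above.

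The 10 genes lay on both sides of 0 in every comparison. For 2 against 0 weeks, 7 of the 10 genes were higher and 3 lower, with a median log2 difference of 0.04, against 0.02 over all genes tested. For 5 against 0 weeks, 4 were higher and 6 lower, with a median of -0.13 against 0.02. For 5 against 2 weeks, 5 were higher and 5 lower, with a median of -0.09 against 0.001. The sum of the 10 genes was 1926 to 2586 CPM at 5 weeks and 2229 to 2397 CPM in the controls.

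The rule that chose the 10 genes used these contrasts, so their counts are set beside the share of all genes and nothing is read from them. Between 2 and 0 weeks, 1 of the 10 genes had an unadjusted p under 0.05, and it was Lox, which was lower. Of all genes tested, 9.24% did, with 3.52% lower and 5.72% higher. Between 5 and 0 weeks, 4 of the 10 genes did, with Eln, Lox and Fbn1 lower and Mfap4 higher. Of all genes tested, 8.63% did, with 2.79% lower and 5.84% higher. Between 5 and 2 weeks, 3 of the 10 genes did, with Eln and Lox lower and Mfap4 higher. Of all genes tested, 10.9% did, with 4.72% lower and 6.18% higher.

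Groups without overlap were counted in the same way. The 5-week libraries lay wholly below the controls for 3 of the 10 genes (Eln, Lox and Fbn1) and wholly above them for 0, whereas 1.36% of all genes lay wholly below and 3.65% wholly above. They lay wholly below the 2-week libraries for 2 of the 10 genes (Eln and Lox) and wholly above them for 0, whereas 2.56% of all genes lay wholly below and 2.38% wholly above. The 2-week libraries overlapped the controls for all 10 genes, whereas 1.95% of all genes lay wholly below and 3.37% wholly above.

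Levels of different genes were compared per kilobase of exon. In the controls Mfap4 stood highest, at 265 ± 33.9 CPM per kilobase, and Ltbp4 followed at 167 ± 8.45 (SD, n = 4). Loxl1 stood at 31.2 ± 4.02 and Fbn1 lowest, at 7.39 ± 1.18 CPM per kilobase. Eln, at 15.7 ± 2.57 CPM per kilobase, ranked 6 of 10 and overlapped its neighbours Emilin1 (19.2 ± 1.70) and Lox (15.2 ± 2.50). At 5 weeks Eln ranked 9 of 10, at 8.76 ± 2.56 CPM per kilobase, and overlapped its neighbours Mfap5 and Fbn1. Fbln5 and Emilin1 were neighbours in all 3 groups, with overlapping libraries. Mfap4 and Ltbp4 did not overlap their neighbours in the 0-week and 2-week groups, and at 5 weeks the same held.

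The balance of Mfap4 to Eln was examined within each library, a pair chosen after its values were seen. The ratio was 9.35, 10.1, 13.6 and 8.63 in the 5-week libraries, against 4.45, 3.20, 4.18 and 4.38 in the controls. In the 2-week libraries it lay between 3.16 and 4.10. No 5-week library overlapped the other groups.

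**Figure D3:**
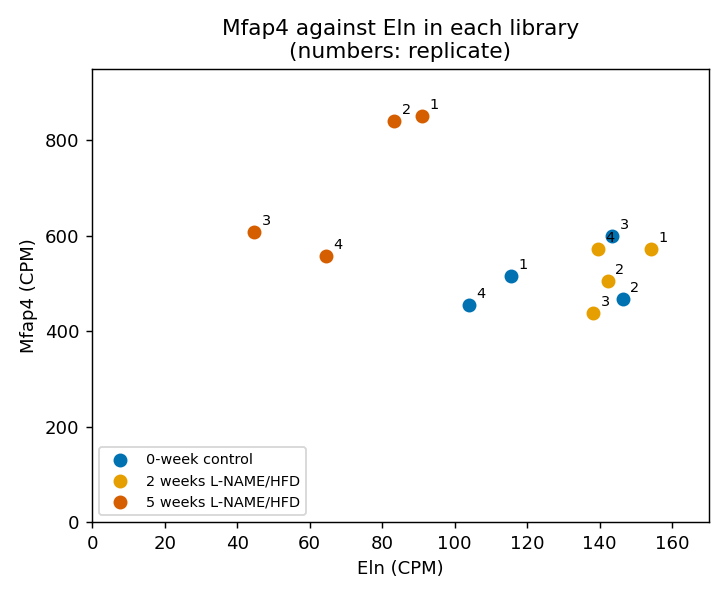
CPM of Mfap4 against CPM of Eln in each of the 12 libraries, coloured by group and numbered by replicate, both axes from 0. The 5-week libraries lie to the left, and within that group the 2 libraries with the most Eln also had the most Mfap4 (851 and 840 CPM, against 607 and 557 CPM).

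In the 5-week group, replicates 1 and 2 had the higher values of Eln, Fbn1, Loxl1, Mfap4 and Lox, and replicates 3 and 4 the lower ones. After group means were subtracted, Pearson's r of Eln over the 12 libraries was 0.75 with Fbn1, 0.67 with Mfap4, 0.65 with Loxl1, 0.60 with Ltbp4, 0.48 with Emilin1, 0.37 with Efemp2, 0.16 with Fbln5, 0.12 with Mfap5 and 0.08 with Lox. With the group means left in, r was 0.78 with Fbn1, -0.39 with Mfap4, 0.61 with Loxl1, 0.41 with Ltbp4, -0.10 with Emilin1, 0.04 with Efemp2, -0.26 with Fbln5, 0.48 with Mfap5 and 0.62 with Lox. The sign thus differed between these measures for Mfap4, Emilin1 and Fbln5, whereas Fbn1 and Loxl1 had similar values in both. Leaving out the 2 libraries with Eln farthest from its median, the pooled r was 0.31 with Fbn1, -0.65 with Mfap4, -0.06 with Loxl1, -0.56 with Ltbp4 and 0.32 with Lox. The relations with Fbn1, Loxl1, Ltbp4 and Lox therefore rest on those libraries at least in part. These r values are descriptions over libraries that share the CPM scaling.

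The genes whose pattern was most like that of Eln over the 12 libraries, out of 15561 others and leaving out predicted genes, were Mmp14 (Pearson's r = 0.95), Sfxn2 (0.93), Meg3 (0.92), Col4a2, Fam160a2, Camsap3 and Smtn (0.90 each) and Pi4k2a (0.89). Mmp14 encodes a membrane-bound matrix metalloproteinase, Col4a2 a basement membrane collagen chain and Smtn the smooth muscle protein smoothelin. After group means were subtracted their r lay between 0.65 and 0.86. Leaving out the 2 libraries with Eln farthest from its median, their pooled r lay between 0.62 (Smtn) and 0.88 (Meg3). Among the 9 genes grouped with Eln at the start (Lox to Ltbp4), Fbn1 was nearest, at rank 101. Mmp14 averaged 47.0 ± 5.11 CPM at 5 weeks and 54.1 ± 1.89 CPM in the controls, and Col4a2 653 ± 136 CPM at 5 weeks and 815 ± 56.5 CPM in the controls (SD, n = 4 each).

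Leukocyte and red cell markers tended to run opposite to Eln over the 12 libraries. Leukocyte markers (8 of 8 genes in the table, 0 of them absent from all libraries) were higher for 8 of 8 genes in 5 against 0 weeks, summing to 371 to 539 CPM at 5 weeks and 230 to 372 CPM in the controls. In the 2-week libraries they summed to 207, 249, 240 and 395 CPM, so that replicate 4 alone of that group lay within the range of the 5-week libraries. Eln in that replicate was 139.5 CPM, above every 5-week library. Red cell markers (7 of 7 in the table) summed to 1510 to 16200 CPM at 5 weeks, with the highest sum in replicate 3, and to 1240 to 2600 CPM in the controls. The Pearson correlation r of Eln, a description over libraries that share the CPM scaling, was -0.79 with the leukocyte mean and -0.84 with the red cell mean over 12 libraries, and -0.44 and -0.73 after group means were subtracted. In 5-week replicate 3 the red cell sum was the highest and Eln the lowest of all 12 libraries. These r values were not computed without that library. The part of these cells in the Eln difference was not tested.

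Smooth muscle markers (10 of 10 in the table, 0 of them absent from all libraries) were lower for 9 of 10 genes in 5 against 0 weeks and for 10 of 10 in 5 against 2 weeks. They summed to 1230 to 1520 CPM at 5 weeks, against 1530 to 2300 CPM at 2 weeks, and the controls lay between 1430 and 1530 CPM. Their median log2 difference was -0.14 for 5 against 0 weeks and -0.50 for 5 against 2 weeks. These medians were not computed without 2-week replicate 3, singled out for its smooth muscle markers. In 2-week replicate 4 the smooth muscle markers summed to 1530 CPM, against 1860 to 2300 CPM in the other 2-week libraries. The ratio of Eln to Myh11, which encodes smooth muscle myosin heavy chain, was 0.40, 0.36, 0.32 and 0.33 in the 5-week libraries, against 0.52, 0.67, 0.70 and 0.47 in the controls. In the 2-week libraries it was 0.572, 0.480, 0.496 and 0.651, within the range of the controls. The 5-week libraries did not overlap the controls in this ratio, which was chosen after its values were seen.

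Fibroblast lists had medians close to that of smooth muscle for 5 against 0 weeks. Lung fibroblast markers (10 of 10 in the table) were lower for 7 of 10 genes, with a median log2 difference of -0.15 and sums of 5370 to 5910 CPM at 5 weeks and 5620 to 5740 CPM in the controls. Adventitial fibroblast markers (8 of 8) were lower for 6 of 8 genes, with a median of -0.15 and sums of 1210 to 1300 CPM at 5 weeks and 1150 to 1470 CPM in the controls. Alveolar myofibroblast markers (8 of 8) were lower for 6 of 8 genes, with a median of -0.16 and sums of 464 to 571 CPM at 5 weeks and 532 to 632 CPM in the controls. The r of Eln over the 12 libraries was 0.73 with the alveolar myofibroblast mean, 0.67 with smooth muscle, 0.37 with lung fibroblast and 0.14 with adventitial fibroblast. After group means were subtracted it was 0.46 with alveolar myofibroblast, 0.32 with smooth muscle, 0.54 with lung fibroblast and 0.15 with adventitial fibroblast. The part of these cells in the Eln difference was not tested either. The ratio of Eln to Col1a1, a chain of fibrillar collagen, was 0.25 ± 0.04 at 5 weeks and 0.35 ± 0.05 in the controls (SD, n = 4 each). These libraries overlapped, with a highest 5-week ratio of 0.295 and a lowest control ratio of 0.294. Cartilage markers were near 0, with 3 of 8 genes in the table summing to at most 2.78 CPM.

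**Figure D4:**
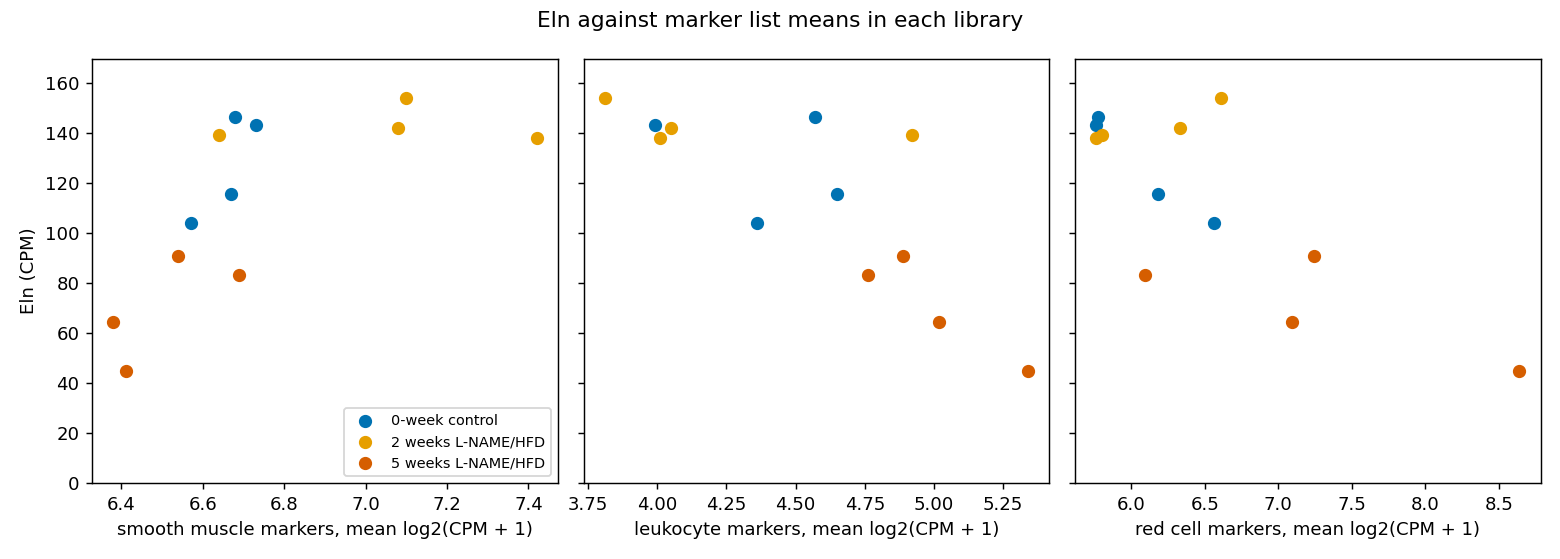
CPM of Eln (vertical axis, from 0) against the mean log2(CPM + 1) of smooth muscle, leukocyte and red cell markers in each of the 12 libraries, coloured by group. The 5-week libraries have the lowest Eln values and lie between 4.76 and 5.34 on the leukocyte axis, against 3.99 to 4.65 for the controls. On that axis 2-week replicate 4 lies at 4.92, within the 5-week range, with Eln at 139.5 CPM.

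A wider list of 62 genes that act on elastic fibres, grouped by role, was examined next. Of these, 61 were in the table and 53 were tested, and 0 of 53 passed at an adjusted p under 0.05 in each of the 3 comparisons. At an unadjusted p under 0.05, 5 of 53 were counted for 2 against 0 weeks, 12 for 5 against 0 weeks (3 higher, 9 lower) and 13 for 5 against 2 weeks (6 higher, 7 lower). The shares of all genes given above were 9.24%, 8.63% and 10.9%. Over the 53 genes the median log2 difference was -0.06 for 5 against 0 weeks and -0.04 for 5 against 2 weeks. It was -0.04 for 2 against 0 weeks as well. Against 0 weeks, 36 of 53 genes were lower at 2 weeks and 36 of 53 at 5 weeks.

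Scaffold genes of microfibrils and matrix were lower for 14 of 15 in 5 against 0 weeks, with a median log2 difference of -0.17, and for 13 of 15 in 5 against 2 weeks. For 2 against 0 weeks 7 of 15 were lower. Cross-linking genes other than Lox and Loxl1 were lower for 6 of 6 in 5 against 0 weeks, with a median of -0.18. They were also lower for 6 of 6 in 2 against 0 weeks, with a median of -0.07. Among them Loxl2, which encodes another lysyl oxidase-like enzyme, had 43.06, 45.89, 27.96 and 28.29 CPM at 5 weeks, against 53.83, 47.75, 45.02 and 55.48 CPM in the controls. The libraries overlapped, and limma gave a log2 difference of -0.50 ± 0.16 (SE, adjusted p = 0.513). The 3 fibulins tested beside Fbln5 and Efemp2 had a median of -0.31, with 2 of 3 lower. Folding and secretion genes lay between -0.14 and 0.11.

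Of the 8 integrin genes listed as receptors, Itgb6 had the largest differences in size from the controls at 2 and at 5 weeks. It encodes the β6 integrin chain of epithelium, which with αv activates latent TGF-β. It had 36.5, 32.9, 31.6 and 30.6 CPM at 2 weeks, against 21.9, 16.9, 23.2 and 20.2 CPM in the controls. Every 2-week library lay above every control, with a log2 difference of 0.66 ± 0.11 (SE, limma adjusted p = 0.0835). For 5 against 0 weeks its difference was 0.43 ± 0.11 (adjusted p = 0.379), also without overlap, and it was 0.28 without the 3 libraries singled out. Itgb6 passed for 2 against 0 weeks with library weights (limma adjusted p = 0.0232) and without 5-week replicate 3 (adjusted p = 0.0307), and its adjusted p ran to 0.292 over 21 alternatives.

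Among proteases listed for their action on elastin or its matrix, Mmp9, a gelatinase abundant in neutrophils, had 24.32, 20.07, 37.03 and 43.30 CPM at 5 weeks, against 6.977, 7.337, 7.294 and 20.49 CPM at 2 weeks. Replicate 4 of the 2-week group overlapped the 5-week group. The controls had 24.51, 13.90, 7.516 and 12.49 CPM and overlapped the 5-week group as well. For 5 against 2 weeks the log2 difference was 1.56 ± 0.37 (SE, limma adjusted p = 0.286), and without 2-week replicate 4 it was 1.91 (limma adjusted p = 0.0177). For 5 against 0 weeks it was 1.09 ± 0.37 (SE, limma adjusted p = 0.521). With library weights the adjusted p of Mmp9 was 0.0189, and over its 21 alternatives it ran to 0.657. Mmp12, the macrophage elastase, averaged 4.601 ± 1.01 CPM at 5 weeks and 2.85 ± 0.511 CPM in the controls (SD, n = 4 each), with a log2 difference of 0.53 ± 0.17 (SE, limma adjusted p = 0.517), which was 0.29 with a pseudocount of 5 CPM. Mmp14 had a log2 difference of -0.32 ± 0.08 for 5 against 2 weeks (adjusted p = 0.288), and its libraries did not overlap. The neutrophil elastase gene Elane was below the filter, with a mean of 0.0658 CPM.

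Among elastase inhibitors, Slpi encodes a secreted inhibitor of neutrophil elastase. It averaged 26.7 ± 8.73 CPM at 5 weeks, 13.7 ± 3.96 CPM at 2 weeks and 19.75 ± 3.93 CPM in the controls (SD, n = 4 each). For 5 against 2 weeks its log2 difference was 0.89 ± 0.24 (SE, limma adjusted p = 0.288), with overlapping libraries. For 5 against 0 weeks it was 0.38 ± 0.24 (SE, limma adjusted p = 0.667), also with overlap. Timp3, which encodes a matrix-bound inhibitor of metalloproteinases, averaged 1357 ± 86.2 CPM at 2 weeks and 1756 ± 244 CPM in the controls. Every 2-week library lay below every control (-0.36 ± 0.13, SE, limma adjusted p = 0.41). Control replicate 4 had the highest value, 2121 CPM, and without it the Timp3 difference was -0.27. Adamtsl5, which encodes a protein of the fibrillin microfibril, averaged 63.6 ± 4.44 CPM at 2 weeks and 54.8 ± 3.80 CPM in the controls. Every 2-week library lay above every control (0.21 ± 0.07, SE, limma adjusted p = 0.419). Without the 3 libraries singled out the Adamtsl5 difference was 0.14.

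**Figure D5:**
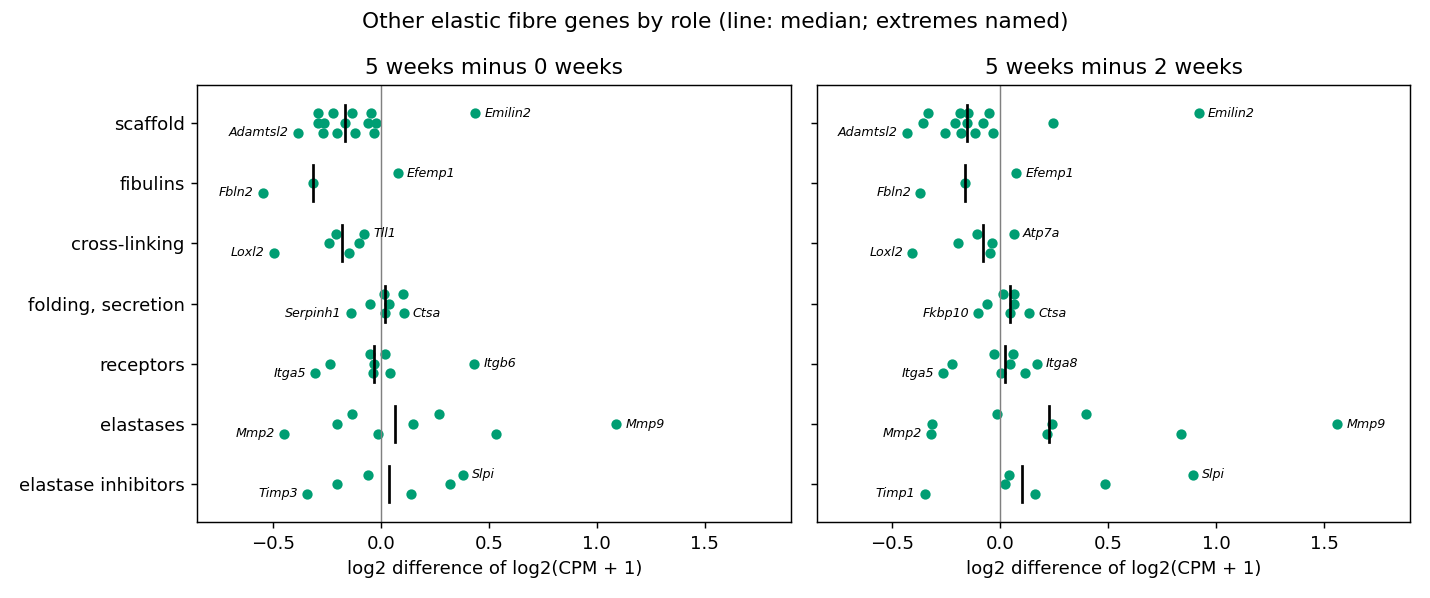
Log2 differences of the 53 other elastic fibre genes tested, by role, for 5 minus 0 and 5 minus 2 weeks (points are genes, lines are medians of each role, and the lowest and highest gene of each role are named). Cross-linking genes lie below 0 for 5 minus 0 weeks, and Mmp9 lies highest in both panels.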

How the data were processed

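The authors deposited 1 table of CPM values for 12 whole-lung libraries, with an offset of 0.0001 CPM in every cell. The submitters' processing notes list TopHat2, Partek and the build mm10. Which annotation, strand setting and low-value filter were applied is not stated in the labels, so overlapping and antisense genes are uncertain. Between 87.2% and 87.9% of low values came out whole (tolerance 0.1 of a step), which did not allow whole reads to be recovered, so no count model was fitted and no interval for counting error is given. Positions are those of the deposited table, which names no build. Only 501 of 23073 genes had the start of GENCODE M21 (GRCm38), although 22662 had its gene length, and the end is printed as the stop minus 1. The gene positions therefore cannot be compared with the promoter positions, which are on GRCm38.p6. Exon lengths came from GENCODE M21, matched by identifier.

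Limma 3.58.1 in R 4.3.3 fitted group means to log2(CPM + 1) over all 12 libraries, with a variance trend, for the 15562 genes averaging 1 CPM or more. Tests were two-sided and adjusted by the Benjamini-Hochberg method over all genes, with a threshold of 0.05, after a check on simulated counts. The simulation capped the spread of each gene and drew genes independently. It held no shifts shared across a library, so it could not check the fit on libraries like those singled out. With 4 libraries a group, fold changes are imprecise. The 10 genes and the lists were chosen with earlier results of these data known. Of the wider list, genes past the threshold or, where 0 passed, the 3 with the smallest p in each comparison are named, with the 8 genes most like Eln. The alternatives were pseudocounts of 0.1 and 5 CPM, no filter, a 10 CPM minimum, quantile scaling, scaling by the median of ratios, weights for libraries, fits of only the 2 groups compared, and each library left out. Leaving out together the 3 libraries singled out was added with the data known. Replicate numbers only name libraries. Python 3.11.15, pandas 2.3.3, numpy 2.4.6, scipy 1.17.1 and matplotlib 3.10.9 served for summaries and plots.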

Additional observations from a re-analysis of the deposited data

Results flagged for a closer look

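Among the 30 sets of 4 values (10 genes in 3 groups), 2 held a library far from the other 3, and chance flags about 1 in 20 such sets. Emilin1 stood at 119.6 CPM in 2-week replicate 4, against 93.5 to 97.1 CPM in the other 2-week libraries. Ltbp4 stood at 765.2 CPM in 5-week replicate 3, against 1011 to 1045 CPM in the other 5-week libraries.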

How the results depend on the processing

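The count of genes past the threshold was 0 under the other alternatives that are not named here. With library weights it was 18 for 2 against 0 weeks and 881 for 5 against 2 weeks, each of 15562 genes tested. Among them were 1 and 10 of the 53 other elastic fibre genes tested. Of the 10 genes, Eln and Mfap4 also passed for 5 against 2 weeks with library weights. Eln passed in that comparison without 2-week replicate 4 as well. Nothing is read from these passes, since the 10 genes were chosen with results of these data known. Leaving out each library in turn gave 0 to 24 genes for 2 against 0 weeks (24 without 5-week replicate 3, 1 without control replicate 1). It gave 0 to 1 for 5 against 0 weeks (1 without control replicate 1) and 0 to 386 for 5 against 2 weeks. The count of 386 of 15563 genes tested came without 2-week replicate 4. That library had the highest leukocyte marker sum of its group, 395 CPM. Of the other elastic fibre genes, 0 to 1 passed for 2 against 0 weeks and 0 to 3 for 5 against 2 weeks. Mmp14 (limma adjusted p = 0.0305, and up to 0.657 over 21 alternatives) and Slpi (0.0378, and up to 0.657) passed for 5 against 2 weeks with library weights.

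The median log2 difference over the 10 genes, -0.13 for 5 against 0 weeks, lay between -0.19 and -0.043 with each library left out, and it was -0.043 without the 3 libraries singled out. For 2 against 0 weeks it lay between -0.006 and 0.091. The causes were not tested. Differences kept their sign under all 21 alternatives for 7 of 10 genes in 2 against 0 weeks, 9 in 5 against 0 weeks (all but Loxl1) and 8 in 5 against 2 weeks. No paired analysis was possible because the replicate numbers only name libraries and the labels pair no mice.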
